A study of Homo sapiens with 18 samples.

Results

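To find what cisplatin (C) added to piroxicam (P), 2 arrays of MSTO-211H cells given both drugs (P/C) for 24 h were compared with 3 arrays of cells given P alone for 24 h. These 5 arrays were chosen by their titles from 18 in all. MSTO-211H is an established human mesothelioma cell line, so each array is a culture of the same line and no other tumour is represented. P was used at 760 µM and C at 4.5 µg/mL, and every treated culture in the comparison had received P. For values side by side, 3 arrays with C alone and 2 untreated arrays at 24 h were used, together with 2 P/C and 2 P arrays at 8 h. The P/C arrays at 24 h were replicates 1 and 3, and the P arrays were replicates 1, 2 and 3.

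Cisplatin is a platinum drug that binds DNA and joins neighbouring bases into adducts, which block replication forks and RNA polymerase. Cells answer with checkpoint kinases and with p53, a transcription factor that switches on genes of cell cycle arrest, repair and death such as CDKN1A, which encodes the cell cycle inhibitor p21. Piroxicam belongs to the anti-inflammatory drugs that block cyclooxygenases and so prostaglandin synthesis. In cycling cells the DNA replication genes are switched on by E2F factors before S phase, and the mitosis genes follow later, many of them through a promoter element called the cell cycle genes homology region (CHR).

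The values are log2 signals from Affymetrix HGU133A arrays. Medians of the 18 arrays lay between 2.72 and 2.83, and 14.95% to 16.8% of the probe sets reached a signal of 100, the limit used below for expressed genes. KRT8, KRT18 and VIM, the keratins and vimentin that mesothelioma cells carry, had log2 signals of at least 9.03 on all 5 arrays. MSLN, CALB2 and WT1, which mark the mesothelial lineage, stayed at or under 4.87, so the labelled cell type rests on few of its markers here (3 of 15 on the array). None of 14 leukocyte markers reached a signal of 100, and of 14 stromal and endothelial markers only COL3A1 did so, at 7.48 in 1 P/C array. The summed signal of the leukocyte markers was 54.9 to 62.6 with P and 54.1 to 56.4 with P/C, and that of the stromal markers 112 to 128 and 166 to 287. What part these cells or markers had in any result was not tested.

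That array, labelled P/C 24 h replicate 1, stood apart. Over 68 probe sets that differed at 8 h between arrays with and without P, its mean log2 shift from untreated cells in the P direction was 0.52. The P arrays had 1.54 to 1.64, P/C replicate 3 had 1.45 and the C arrays, which held no P, had 0.36 to 0.43. On this measure the array went against its label, since it lay with the arrays without P. Its deviations from the mean of the 24 h arrays correlated at −0.45 on average with those of the P arrays and at 0.31 with those of the C arrays, whereas P/C replicate 3 gave 0.50 and −0.41 (3057 probe sets in each case, all on the same arrays). Both P/C arrays were nevertheless above the P arrays in p53 target genes: the median log2 shift of 15 p53 target genes from untreated cells was 1.22 and 0.94, against 0.26 to 0.51 in the P arrays. The array labelled C 24 h replicate 1 had 0.23 there and the other C arrays 1.12 and 1.06. The counts below, and the genes whose difference depends on that array, are therefore given with both P/C arrays and with replicate 3 alone, and replicate 1 stands for the array so labelled. Replicate 2 of P/C at 24 h was not analysed here.

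**Figure D1:**
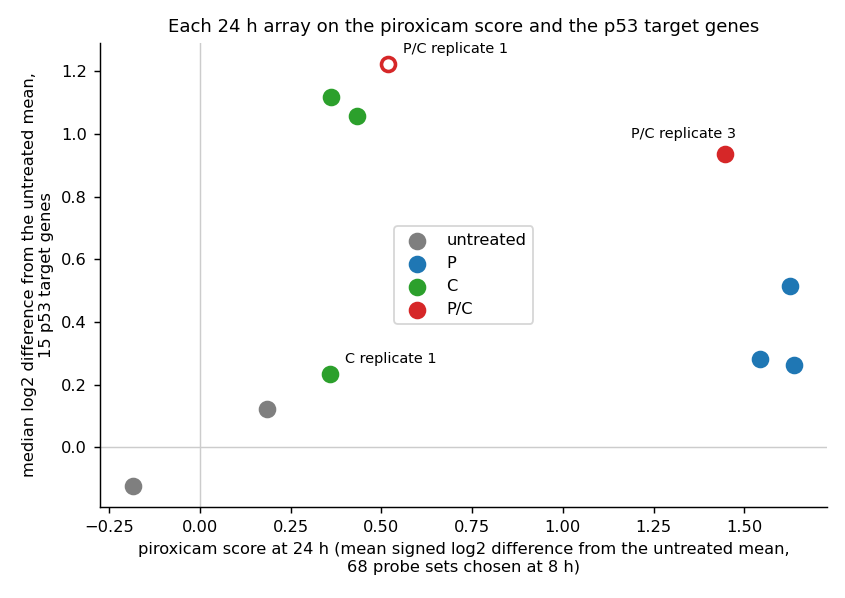
Each point is an array at 24 h, with the piroxicam score (mean signed log2 difference from the untreated mean over 68 probe sets chosen at 8 h) on the horizontal axis and the median log2 difference of 15 p53 target genes on the vertical axis. The open circle is the array labelled P/C replicate 1, at 0.52 beside the C arrays, while P/C replicate 3 lies at 1.45 beside the P arrays.

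Of 3057 probe sets tested with limma, 5 were called between P/C and P at 24 h, the threshold being 0.05 for the adjusted p together with a log2 difference of 1 or more (0.164%). All 5 were higher with P/C. A further layer of differences was not called: at an unadjusted p under 0.05, 471 probe sets were higher (15.4%) and 137 lower (4.48%). Both P/C arrays lay above all 3 P arrays in 847 probe sets (27.7%) and below all of them in 297 (9.72%), and the median log2 difference over everything tested was 0.12. Without the array labelled P/C replicate 1 no probe set was called. The smallest adjusted p from limma was then 0.101, and an unadjusted p under 0.05 was reached by 183 probe sets on the higher side (5.99%) and by 45 on the lower (1.47%). Replicate 3 is then the only P/C array, and it is assumed to vary like the other groups.

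The 5 genes called higher with P/C than with P serve DNA replication, ribosome assembly, transcription and stress. All 5 had lower means with P than in untreated cells. Those log2 differences were −2.37 for MCM4, −1.04 for PCNA, −1.09 for FTSJ3, −0.61 for EI24 and −0.90 for POLR2D. C alone against untreated cells gave −0.05, 0.18, 0.17, 0.44 and 0.27 in the same order. MCM4, a subunit of the helicase that opens DNA for replication, had log2 signals of 5.38, 5.52 and 5.68 with P, and 7.87 and 6.54 with P/C. PCNA, the sliding clamp of DNA polymerases and also a p53 target, had 8.63, 9.05 and 8.42 with P against 10.21 and 9.90 with P/C. In both genes the groups stood apart, with replicate 1 the higher of the P/C arrays. The log2 difference was 1.68 for MCM4 (SE 0.30, adjusted p = 0.0453 from limma) and 1.35 for PCNA (SE 0.25, adjusted p = 0.0453), which is 3.20-fold and 2.55-fold. Without the array labelled replicate 1 it was 1.01 for MCM4 and 1.20 for PCNA, neither called. A second probe set of MCM4 had 1.08 (0.48 with replicate 3 alone) and was not called (adjusted p = 0.0703).

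FTSJ3, a nucleolar methyltransferase needed to make ribosomes, had 5.47, 5.11 and 5.45 with P and 7.16 and 6.43 with P/C. EI24, an endoplasmic reticulum gene known to be induced by p53, had 6.96, 6.64 and 6.56 with P and 8.15 and 7.83 with P/C. POLR2D, a subunit of RNA polymerase II, had 6.27, 6.38 and 5.70 with P and 7.48 and 7.05 with P/C. None of these groups overlapped. The log2 differences of FTSJ3, EI24 and POLR2D were 1.45 (SE 0.24), 1.27 (SE 0.23) and 1.15 (SE 0.22), with adjusted p values from limma of 0.0453, 0.0453 and 0.0499. With replicate 3 as the only P/C array they were 1.09, 1.10 and 0.93. EI24 has another tested probe set, which differed by 0.28 (adjusted p = 0.49), so its call rests on 1 of 2 probe sets.

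**Figure D2:**
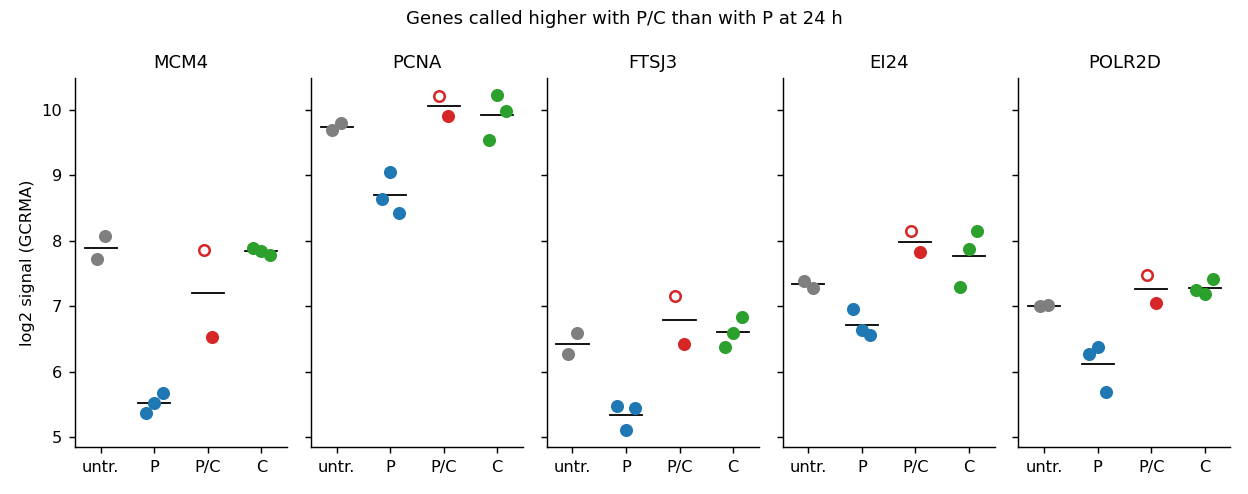
Log2 signal of the 5 called genes at 24 h in untreated, P, P/C and C arrays, with each array as a point and the group mean as a line; the open circle is the array labelled P/C replicate 1. Both P/C points lie above all P points in every panel, and for MCM4 the P/C arrays at 7.87 and 6.54 lie far from each other.

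The p53 target genes differed in the same direction in both P/C arrays. PCNA and EI24, called above, were not among the tested genes of the p53 list used here. Of 15 tested on that list, none was called, but 12 had both P/C arrays above all P arrays, against 27.7% of all probe sets, and 1 had both below. The median log2 difference was 0.65 with both P/C arrays and 0.57 with replicate 3 alone, beside 0.12 and 0.15 over all probe sets. SESN1, a stress-induced regulator of growth and redox state, had 6.66, 6.41 and 6.40 with P and 7.82 and 8.04 with P/C. PPM1D, the phosphatase that switches p53 signalling off again, had 6.84, 6.12 and 6.56 with P and 8.84 and 7.99 with P/C. Both were well separated, though not called: the log2 differences were 1.44 (SE 0.37, adjusted p = 0.0603 from limma) and 1.91 (SE 0.55, adjusted p = 0.0789). In SESN1 replicate 3 was the higher of the P/C arrays, and alone it gave 1.55. When the array labelled C replicate 1 was also left out of the fit, a setting added once the data had been seen, SESN1 rose by 1.55 (adjusted p = 0.0111 from limma).

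CDKN1A had log2 signals of 9.82, 9.62 and 9.55 with P, and 11.30 and 10.76 with P/C. The difference of 1.37 (SE 0.52) is 2.58-fold, with no overlap and an adjusted p of 0.159 from limma, so it was not called. With replicate 3 alone it was 1.10. The p21 gene was already higher with P than in untreated cells, whose mean was 8.46, and C alone gave 8.66, 10.71 and 11.46. ZMAT3, a p53-induced RNA-binding protein, and TIGAR, which restrains glycolysis, had differences of 1.27 and 1.18, and with replicate 3 alone 1.37 and 0.57. TIGAR thus rested largely on replicate 1, at 9.22 against 8.00 in replicate 3 and 6.94 to 7.89 with P. XPC, a sensor of DNA lesions in nucleotide excision repair, had 0.60, and the secreted stress factor GDF15 had 0.88. PLK2, a p53-induced kinase, was the gene with both P/C arrays below P, by only 0.28.

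Of 30 listed p53 targets on the array, 15 passed the filter. TP53I3, FAS and DDB2 failed the filter on low signals because few groups expressed them. They were picked from the rest after their values were seen, in a fit of all probe sets. The other targets outside the filter are not given, and the picked genes do not stand for them. TP53I3, an oxidoreductase gene that p53 induces on the way to cell death, was at 2.85, 2.94 and 2.89 with P, and at 7.24 and 7.21 with P/C. It thus went from near the array medians, where absence cannot be told from a low level, to an expressed level in both P/C arrays alike. The log2 difference was 4.33 (SE 0.94, adjusted p = 0.0815 from limma over all probe sets). Untreated cells had 2.60 and 2.90, and C alone 2.29, 5.92 and 7.37, the lowest of these in the array labelled C replicate 1. FAS, the death receptor, had 4.97, 4.52 and 4.05 with P and 7.95 and 6.42 with P/C (difference 2.67, SE 0.65, adjusted p = 0.0964). DDB2, which finds UV and platinum lesions for repair, had 6.33, 6.36 and 6.06 with P and 8.81 and 7.52 with P/C (difference 1.91, SE 0.55, adjusted p = 0.148), and with replicate 3 alone the difference was 1.27. In none of these genes did the groups overlap, and none was called. At 8 h the P/C arrays had TP53I3 at 2.84 and 2.84, beside 2.86 and 2.41 with P, so at 8 h it stayed at the low level in both groups.

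**Figure D3:**
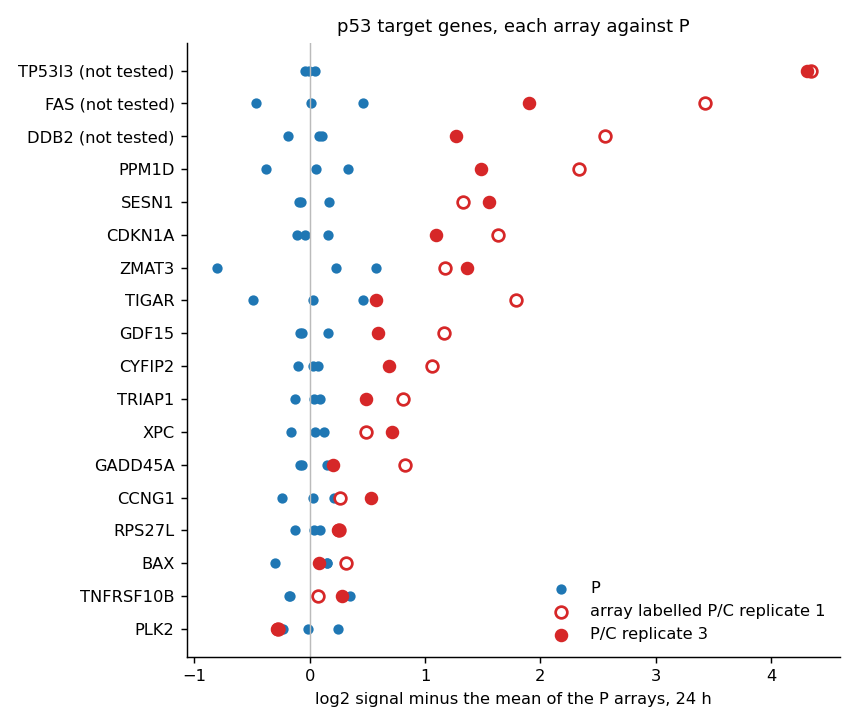
Log2 signal of each tested p53 target gene, and of some picked from outside the filter, minus the mean of the P arrays at 24 h. Small points are the P arrays, open ones the array labelled P/C replicate 1 and filled ones P/C replicate 3. TP53I3, FAS and DDB2 were outside the filter; TP53I3 lies 4.33 above P in the mean of the P/C arrays, and PLK2 is the gene with both P/C arrays below.

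DNA replication genes were mostly higher with P/C, but unevenly between its arrays. Of 31 tested, MCM4 and PCNA were called higher than with P, beside 0.164% of all probe sets called. Both P/C arrays lay above P in 12 and below P in 1 (27.7% and 9.72% of all probe sets). At an unadjusted p under 0.05 from limma there were 14 higher and 1 lower, against 15.4% and 4.48% of all probe sets. The median log2 difference was 0.68 with both arrays, but 1.04 in the array labelled replicate 1 and 0.25 in replicate 3. Against untreated cells the list had a median of −1.06 with P alone and −0.11 with C alone. With P alone 17 of the 31 were called lower than untreated (11.4% of all probe sets). GINS1, a part of the replicative helicase, had 3.92, 4.74 and 4.15 with P, and 7.12 and 4.99 with P/C. CDC6, which loads the helicase, had 3.25, 3.15 and 3.01 with P, and 6.24 and 3.57 with P/C. In both genes replicate 1 was near the untreated means of 7.86 and 6.23, while replicate 3 lay just above the P arrays. The differences of 1.78 for GINS1 and 1.77 for CDC6 were 0.71 and 0.43 with replicate 3 alone. The level in the array labelled replicate 1 was at or above the lower untreated array in 15 of the 31 genes, and in replicate 3 in 6. Over all 3057 probe sets these counts were 1536 and 1641.

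Further examples of the 12 members above P in both arrays were RFC2, a subunit of the clamp loader, and GMNN, or geminin, which prevents a second round of licensing. RFC2 had 6.10, 5.15 and 5.81 with P and 7.49 and 6.65 with P/C (difference 1.38, SE 0.29), and GMNN had 5.28, 5.93 and 5.26 with P and 7.51 and 6.23 with P/C (difference 1.38, SE 0.32). Both had an adjusted p of 0.0538 from limma and were not called, and with replicate 3 alone they had 0.96 and 0.75. RRM1, the large subunit of ribonucleotide reductase, gave 1.20 on one probe set (adjusted p = 0.0538) and 0.39 on the other (adjusted p = 0.44), so its probe sets disagreed. PRIM1, the primase that starts new strands, was the exception with both P/C arrays below P, with a P/C mean of 6.84 against 7.22, 7.99 and 7.35 (difference −0.68, adjusted p = 0.13).

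Some of these genes share a promoter motif, a feature that the comparison did not use. In RefSeq windows of build GRCh38.p14, running from 250 bases before to 50 after the gene's start, an E2F motif (TTTCGCGC, TTTGGCGC, TTTCCCGC or TTTGCCGC on either strand) was found in 19 of 50 listed replication genes with a window (38.0%) and in 3.33% of all 27305 windows. The clamp loader gene RFC3 had differences of 1.77 and 1.07 on its probe sets (adjusted p = 0.0538 and 0.114 from limma), and 0.99 and 0.38 with replicate 3 alone. PCNA, which was called higher than with P, and RFC3 show the element. The 150 bases before the start are given for both on the gene's strand, with the E2F motif, here in its reverse complement, in capitals. PCNA lies on the minus strand at chr20:5126623-5126772 and RFC3 on the plus strand at chr13:33817999-33818148.
PCNA: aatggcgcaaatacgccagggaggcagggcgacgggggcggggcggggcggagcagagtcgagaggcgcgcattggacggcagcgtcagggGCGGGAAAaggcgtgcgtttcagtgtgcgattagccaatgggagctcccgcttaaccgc
RFC3: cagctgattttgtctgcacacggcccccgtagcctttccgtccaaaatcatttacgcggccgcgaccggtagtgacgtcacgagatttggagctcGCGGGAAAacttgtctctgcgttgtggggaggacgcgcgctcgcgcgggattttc
Among the tested replication genes, the 10 with the motif had a median difference of 0.84 (0.41 with replicate 3 alone) and the 17 without it 0.24 (0.24). The motif is a match of letters and no measure of binding.

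Mitosis genes gave opposite medians in the P/C arrays, 0.21 above P in the array labelled replicate 1 and −0.45 in replicate 3. Of 39 tested none was called. Both P/C arrays lay below P in 7 and above P in 5, beside 9.72% and 27.7% of all probe sets, and the median difference was −0.16. The array labelled replicate 1 was above all P arrays in 22 genes and below them in 7, whereas replicate 3 was below in 27 and above in 5. Over all 3057 probe sets replicate 1 was above in 1400 and below in 928, and replicate 3 was below in 509 and above in 1385. Replicate 1 was the higher of the P/C arrays in 37 of 39 genes. With replicate 3 alone, 13 genes were lower at an unadjusted p under 0.05 and 1 higher, against 1.47% and 5.99% of all probe sets.

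CCNA2, the cyclin A of S phase and mitosis, had log2 signals of 7.79, 8.00 and 7.67 with P, and 7.01 and 5.14 with P/C. CCNB1, the cyclin B that drives entry into mitosis, had 8.80, 8.79 and 8.86 with P and 8.39 and 7.38 with P/C. HMMR, a spindle protein, had 8.08, 8.27 and 7.93 with P and 7.34 and 7.02 with P/C. All of these probe sets were below P in both P/C arrays, and lowest in replicate 3. CCNA2 has another tested probe set, which was not lower at an unadjusted p under 0.05 from limma with both P/C arrays. The log2 differences were −1.75 (SE 0.50, adjusted p = 0.0766 from limma) for CCNA2, −0.93 (SE 0.29, adjusted p = 0.0948) for CCNB1 and −0.91 (SE 0.19, adjusted p = 0.0538) for HMMR, whose other probe set had −1.16 (adjusted p = 0.0538). With replicate 3 alone they were −2.68, −1.44, −1.08 and −1.60. BUB1, a kinase of the spindle checkpoint, was at 4.82 and 5.54 with P/C against 6.67, 6.57 and 6.13 with P (difference −1.27, adjusted p = 0.115), and CENPF, a kinetochore protein, was at 6.96 and 5.99 against 7.37, 7.16 and 7.52 (difference −0.87, adjusted p = 0.144). With both arrays labelled replicate 1, of P/C and of C, left out of the fit, CCNA2, CCNB1, the second HMMR probe set and BIRC5, or survivin, fell by 2.68, 1.44, 1.60 and 1.20, with adjusted p values from limma of 0.00602, 0.00712, 0.0157 and 0.0303. They were among 7 probe sets called in that fit, 6 lower and 1 higher, none of them among the 5 called with all arrays.

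In other mitosis genes the P/C arrays took opposite sides of the P mean. AURKA, the centrosomal kinase, was at 8.10 in replicate 1 and at 6.84 in replicate 3, against 7.97, 7.78 and 8.18 with P. Replicate 1 thus lay within the range of the P arrays in AURKA, whose other tested probe set is not given. BIRC5 was at 7.02 and 5.54 against 6.71, 6.87 and 6.63. KIF2C, a kinesin that takes microtubules apart, was at 8.16 and 6.06 against 6.66, 6.23 and 6.42. With replicate 3 alone the differences of AURKA, BIRC5 and KIF2C were −1.13, −1.20 and −0.38, and with replicate 1 alone they were 0.12, 0.28 and 1.72. Across the list 21 of 39 genes were above the P mean in replicate 1 and below it in replicate 3, and none the other way round. A few mitosis genes were higher in both P/C arrays. MAD2L1, a checkpoint protein, had 9.02 and 8.57 against 8.17, 7.89 and 7.57 (difference 0.92, adjusted p = 0.0703), and CDK1, the mitotic kinase, had 8.39 and 8.03 against 7.86, 7.51 and 7.12 (difference 0.71, adjusted p = 0.115). CDK1 has 3 tested probe sets, of which only this 1 is given.

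**Figure D4:**
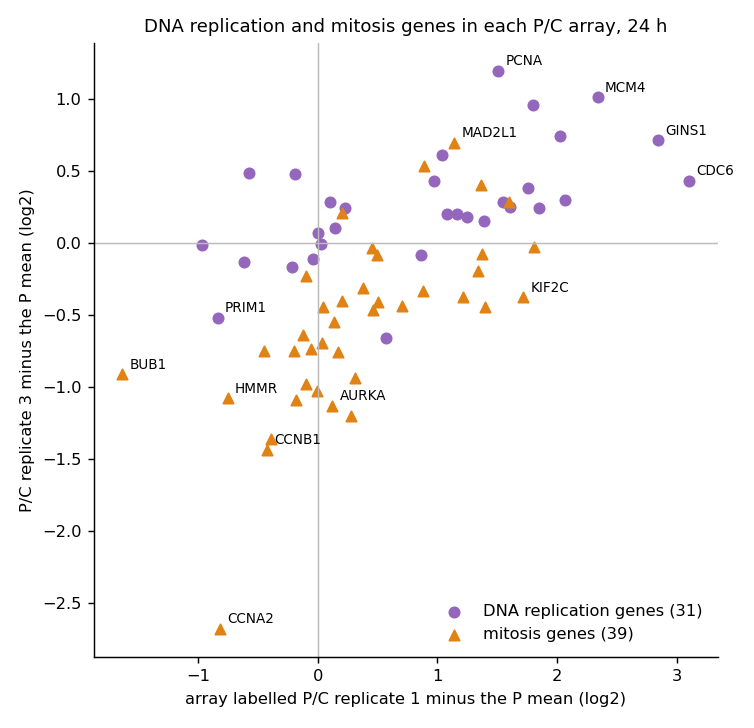
Each point is a gene, with its log2 signal minus the P mean in the array labelled P/C replicate 1 (horizontal) and in P/C replicate 3 (vertical) at 24 h, for 31 DNA replication and 39 mitosis genes. Most replication genes lie right of and above 0, while most mitosis genes lie below 0 on the vertical axis, with CCNA2 lowest at −2.68.

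Promoters of the mitosis genes carried other elements. The CHR letters (TTTGAA or TTCGAA on either strand) were found in 36 of 51 windows (70.6%), against 16.62% of all windows, and CCAAT in 39 (76.5%) against 35.70%. In the replication list the CHR share was 8.0%. HMMR, the mitosis gene with the smallest p, and BUB1B, a checkpoint kinase that had −0.31 with both P/C arrays and −0.94 with replicate 3 alone, are shown, with the CHR and CCAAT matches on either strand in capitals. Both lie on the plus strand, HMMR at chr5:163460482-163460631 and BUB1B at chr15:40160919-40161068.
HMMR: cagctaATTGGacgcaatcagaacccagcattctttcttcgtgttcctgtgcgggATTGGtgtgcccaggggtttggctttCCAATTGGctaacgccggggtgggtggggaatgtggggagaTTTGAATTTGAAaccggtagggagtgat
BUB1B: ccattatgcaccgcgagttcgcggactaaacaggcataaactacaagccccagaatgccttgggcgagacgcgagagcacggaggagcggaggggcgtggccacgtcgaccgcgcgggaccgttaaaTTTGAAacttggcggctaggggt
The HMMR window holds a tandem pair of CHR letters and several CCAAT letters, of which one pair overlaps. Within the tested list the difference did not separate by the element: the median was −0.16 in 23 genes with CHR letters and −0.20 in 7 without.

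Very long genes were frequent among the genes with the smallest p on the lower side. Among 14 such genes, whose groups did not overlap, 8 spanned 100 kb or more in RefSeq (GRCh38.p14), against 14.4% of the 2203 tested genes, and among the 15 on the higher side 1 did. Over all 234 genes with both P/C arrays below P the share was smaller, 71 (30.3%), and their median span was 40.5 kb beside 30.9 kb for all genes. STX8, a syntaxin of endosomal fusion that spans 325.4 kb, had log2 signals of 7.91, 7.87 and 7.48 with P, and 4.74 and 6.18 with P/C. DENND1A, an endocytosis factor of 550.5 kb, had 6.88, 6.46 and 6.75 with P, and 3.46 and 5.40 with P/C. PTPRK, a receptor tyrosine phosphatase of 551.8 kb, had 7.80, 7.91 and 8.06 with P, and 5.50 and 6.77 with P/C. In all of them both P/C arrays were below P, replicate 1 more so. The log2 differences were −2.29 (SE 0.63, adjusted p = 0.0698 from limma), −2.27 (SE 0.64, adjusted p = 0.0739) and −1.79 (SE 0.47, adjusted p = 0.0617). With replicate 3 alone they were −1.57, −1.30 and −1.15. None was called. COG5, a Golgi tether of 362.5 kb, had −2.18 (adjusted p = 0.0538) and −1.23 with replicate 3 alone, EXT1, which builds heparan sulphate, had −1.39 (adjusted p = 0.0703), and MGAT5, a glycosyltransferase of the Golgi, had −1.57 (adjusted p = 0.0538). MGAT5 was lower in replicate 3, at 5.38, than in replicate 1, at 5.81, against 7.13, 7.20 and 7.17 with P. In the fit without both arrays labelled replicate 1, MGAT5 fell by 1.79 (adjusted p = 0.0111 from limma).

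Over all spans the longest bin stood apart, in bins chosen after these values were seen and therefore without a test. Of the 92 tested genes of 200 kb and over, 38 had both P/C arrays below P (41.3%) and 5 had both above (5.4%). The shares with both below were 11.8% under 10 kb, 7.9% at 10 to 30 kb, 7.6% at 30 to 100 kb and 14.7% at 100 to 200 kb, and the shares with both above were 27.3%, 34.1%, 26.7% and 15.6%. The shortest genes were thus below P more often than those of 10 to 100 kb, and there was no steady order over the whole range. The median log2 difference from P of the 92 longest genes was −0.47 in the array labelled replicate 1 and −0.26 in replicate 3, although the median of all genes was 0.10 and 0.15. Each P array set against the other P arrays gave 0.27, −0.17 and −0.03 for these genes. On these medians both P/C arrays lay below the P arrays, replicate 3 by little. The untreated arrays, each set against the other, gave 0.23 and −0.23, so that P/C replicate 3 was only just beyond that spread. Minus the median of all genes, the P/C arrays were at −0.57 (labelled replicate 1) and −0.40 (replicate 3). The P arrays were then at 0.12, −0.11 and 0.03, and the untreated arrays at 0.14 and −0.14. Replicate 3 thus lay further beyond the spread on that measure. Without that subtraction, C without P gave −0.14, −0.96 and −0.67 against untreated cells in replicates 1, 2 and 3. These arrays were not used in the P/C comparison, and C replicate 1 lay within the spread of the untreated arrays. At 8 h the P/C arrays gave −0.35 and −0.08 against P. Across the 2203 genes, which all share these arrays, Pearson's r between log10 span and the difference was −0.131 for P/C against P at 24 h, −0.079 with replicate 3 alone, −0.331 for C against untreated, −0.370 for P/C against P at 8 h, and 0.006 for P against untreated.

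**Figure D5:**
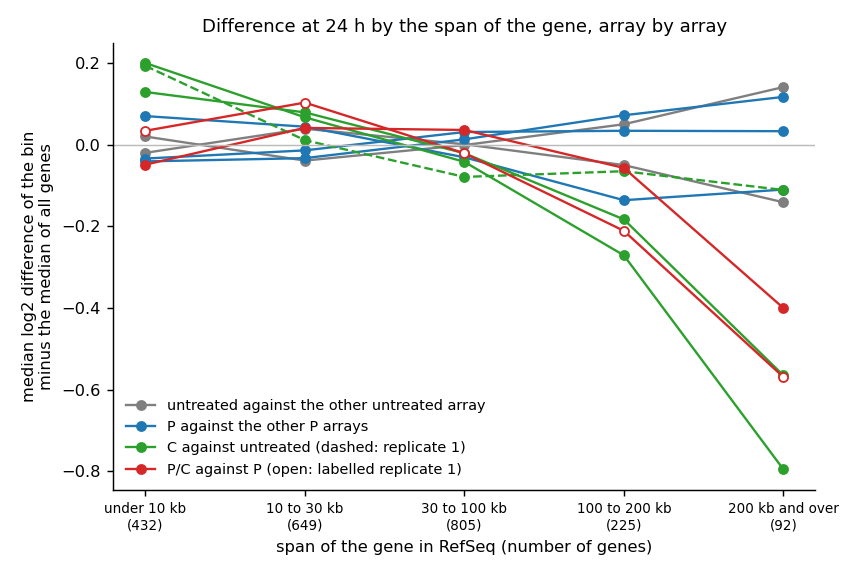
Median log2 difference of the genes in each span bin minus the median of all 2203 genes, for each 24 h array: untreated arrays against each other, P arrays against the other P arrays, C arrays against untreated cells and P/C arrays against P. At 200 kb and over the P/C arrays are at −0.57 (labelled replicate 1, open) and −0.40, C replicate 1 (dashed) is at −0.11 and the untreated arrays are at 0.14 and −0.14.

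Among other groups, cytosolic and mitochondrial chaperones were higher in both P/C arrays in 14 of 18 tested genes and lower in none, beside 27.7% and 9.72% of all probe sets, with a median of 0.37 (0.22 with replicate 3 alone). CHORDC1, an HSP90 co-chaperone, had 6.35, 6.04 and 5.94 with P and 7.98 and 7.36 with P/C (difference 1.56, SE 0.36, adjusted p = 0.0538 from limma), and DNAJA1, a partner of HSP70, had 0.73 (adjusted p = 0.0713) and 0.47 with replicate 3 alone. Ribosome biogenesis genes were above P in both arrays in 10 of 17 and below in 1, beside the same 27.7% and 9.72%, with medians of 0.37 and 0.31. GNL2, a nucleolar GTPase, had 0.98 (adjusted p = 0.0538), and NOLC1, a nucleolar scaffold, had 0.58 (adjusted p = 0.133) and 0.31 with replicate 3 alone. Of 16 DNA damage and repair genes 6 were above P in both arrays and none below, not far from the 27.7% above P among all probe sets, with a median of 0.34 (0.33 with replicate 3 alone). TOPBP1, which activates the checkpoint kinase ATR, had 6.09, 5.18 and 6.11 with P and 7.69 and 6.79 with P/C (difference 1.45, SE 0.31, adjusted p = 0.0538). ATR itself was at 7.13 and 7.06 with P/C against 6.32, 6.51 and 6.24 (difference 0.74, adjusted p = 0.0698), nearly equal in both P/C arrays. CCND1, the cyclin D1 of the G1 phase, had 1.32 (SE 0.28, adjusted p = 0.0538), and SRSF6, a splicing factor, had 2.17 (SE 0.48, adjusted p = 0.0538), with 7.69 in replicate 1 and 6.02 in replicate 3 against 4.79, 4.77 and 4.48 and a difference of 1.34 with replicate 3 alone. None of the genes named in this paragraph was called.

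A different set was low mainly in the array labelled replicate 1. Of 4 metallothioneins, proteins that bind metals including platinum, 3 were below P in both P/C arrays and the other was above, beside 9.72% and 27.7% of all probe sets, and the median was −1.14 with both arrays and −0.29 with replicate 3 alone. MT1X had 9.69, 9.42 and 9.78 with P, 6.94 in replicate 1 and 9.11 in replicate 3. TRIB3, an inhibitor of AKT that the integrated stress response induces, had a mean of 9.81 with P (3 arrays), 7.15 in replicate 1 and 9.42 in replicate 3. The neutrophil chemokine CXCL3 had 10.01, 9.66 and 9.76 with P, 6.47 in replicate 1 and 9.58 in replicate 3. In these genes replicate 3 lay close to P and the low value was that of replicate 1. The differences of −1.61, −1.53 and −1.78 (adjusted p = 0.0947, 0.107 and 0.113 from limma) were −0.52, −0.40 and −0.22 without that array. ASNS, which makes asparagine, had −0.73 with both arrays and 0.064 with replicate 3 alone. The cholesterol synthesis gene IDI1 showed the opposite, at 8.74 in replicate 1 and 6.28 in replicate 3 against 6.17, 5.51 and 6.03 with P (difference 1.60, adjusted p = 0.0947, and 0.37 with replicate 3 alone).

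No tested gene of drug entry or of the cell death list was called. SLC31A1, the copper importer through which cisplatin can enter, was at 6.12 and 6.61 with P/C against 6.46, 7.10 and 7.12 with P, with overlap between the groups (difference −0.53, adjusted p = 0.242, and −0.29 with replicate 3 alone). LRRC8D, a subunit of an anion channel that also passes platinum drugs, had −0.84 with both arrays (adjusted p = 0.249) and 0.029 with replicate 3 alone. Of 11 tested genes of the BCL2 family, death receptors and caspases 2 were above P in both arrays and none below, no more than the 27.7% and 9.72% of all probe sets. FAS, described above, was outside the tested genes through the filter. The survival factor MCL1 had 0.58 (adjusted p = 0.173) and 0.29 with replicate 3 alone, and the initiator caspase CASP8 had −0.61 (adjusted p = 0.28), with 5.04 in replicate 1 and 6.06 in replicate 3 against 6.05, 6.17 and 6.25. Of the 32 genes of the cell cycle network that the study names, a list chosen on these samples, 26 were tested and MCM4 alone was called (0.164% of all probe sets), with 4 genes above P in both arrays and 4 below (27.7% and 9.72% of all probe sets) and a median of −0.25 (−0.51 with replicate 3 alone).

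The positions of the P/C arrays between P and untreated cells differed as well. P lowered 349 probe sets against untreated cells (11.4%) and raised 96 (3.14%), on arrays of which the P ones also serve the P/C comparison, so these are counts of position only. Among the 349 lowered, the array labelled replicate 1 lay above all P arrays, toward untreated cells, in 301 and had reached the nearer untreated array in 76. Replicate 3 did so in 185 and 6. Among the 96 raised, replicate 1 lay below all P arrays in 67 and replicate 3 in 16. Over all 3057 probe sets, replicate 1 lay above all P arrays in 1400 and below them in 928, and replicate 3 in 1385 and 509. The 16 of 96 in replicate 3 was thus near its share over all probe sets.

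Among the genes with the smallest p on the higher side when replicate 3 was the only P/C array were several outside the cell cycle lists. GLUL, which makes glutamine, had 7.14, 6.90 and 6.97 with P and 7.80 and 8.01 with P/C, and SEC23B, a coat protein of vesicles leaving the endoplasmic reticulum, had 6.89, 6.62 and 6.98 with P and 7.52 and 7.85 with P/C. RIOK3, a kinase of ribosome maturation, had 7.62, 7.37 and 7.48 against 8.51 and 8.60, OAT, a mitochondrial aminotransferase, had 8.76, 8.59 and 8.41 against 9.37 and 9.51, and DIMT1, an rRNA methyltransferase, had 7.42, 7.10 and 7.10 against 7.65 and 8.12. In each of these genes replicate 3 was the higher of the P/C arrays, and the difference was larger without replicate 1. The log2 differences with both arrays were 0.90, 0.85, 1.06, 0.85 and 0.68 for GLUL, SEC23B, RIOK3, OAT and DIMT1 (adjusted p = 0.0538 except for DIMT1, with 0.0866), and with replicate 3 alone 1.00, 1.02, 1.11, 0.92 and 0.92.

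Whether C acted differently with P than without it was tested as the difference between P/C minus P and C minus untreated at 24 h. No probe set was called with limma (smallest adjusted p 0.136, 426 at an unadjusted p under 0.05). The p53 target list had medians of 0.65 for P/C against P and 0.64 for C against untreated, the replication list 0.68 and −0.11, and the mitosis list −0.16 and −0.50. With P/C replicate 3 alone the medians against P were 0.57, 0.25 and −0.45 in the same order. The C side of the p53 list included C replicate 1, with a median shift of 0.23 beside 1.12 and 1.06 in C replicates 2 and 3. For CDKN1A the difference was −0.45 (adjusted p = 0.82 from limma). It too included C replicate 1, at 8.66 beside 10.71 and 11.46 in C replicates 2 and 3. ATF3, a stress transcription factor, had 7.17, 6.86 and 6.35 with P and 9.52 and 7.79 with P/C, and C alone gave 5.09, 9.27 and 9.18 beside an untreated mean of 4.34. With replicate 3 alone ATF3 was 1.00 above P. The difference between its responses was −1.64 (adjusted p = 0.55). Without the arrays labelled P/C replicate 1 and C replicate 1 it was −3.88 (SE 0.45, adjusted p = 0.00193 from limma), in a setting added once the data had been seen.

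At 8 h no probe set was called between the 2 P/C and 2 P arrays with limma, and 20 had an unadjusted p under 0.05. The difference between 24 h and 8 h was called in none either (259 at an unadjusted p under 0.05, smallest adjusted p 0.319). ATF3 was at 7.05 and 6.83 with P/C at 8 h against 5.66 and 5.87 with P. The p53 target list had a median of 0.27 at 8 h, the replication list 0.04 and the mitosis list −0.12, and none of these lists had a called gene at that time. The number of arrays, 2 against 2 at 8 h and 2 against 3 at 24 h, limits what could be called.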

How the data were processed

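RNA of MSTO-211H cells had been hybridised to Affymetrix HGU133A arrays, and the study describes biological replicates. The authors deposited GCRMA log2 signals for 18 arrays (22283 probe sets), which were used as deposited; 0 columns of the table were left unused. The number of arrays limits the precision. Affymetrix controls (68 probe sets) were left out, and a filter kept 3057 probe sets whose interquartile range reached 0.25 and whose signal reached 100 in 25% of arrays. Means of 8 groups were fitted with limma 3.58.1 (R 4.3.3), so that all arrays shared the estimate of the spread, with 10 residual degrees of freedom. P-values were adjusted by Benjamini-Hochberg, and a call needed an adjusted p of 0.05 or less and a log2 difference of at least 1. The fit was tested on simulated data.

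The comparison, its genes and the gene lists were chosen with earlier results of these data known. A gene in a list was represented by its tested probe set with the highest mean. CDK1 had 3 tested probe sets, and AURKA, DNAJA1, DIMT1, MT1X, NOLC1 and IDI1 had 2 each. For each of these genes the values of 1 probe set are given and the others are not. Genes were named by the largest called differences (15 a direction), filled up by the smallest p among probe sets without overlap, also in the fit that left out P/C 24 h replicate 1, and by the leading members of each list and the network genes of the study. ZMAT3, TIGAR, GDF15, XPC, PLK2, TP53I3, FAS, DDB2, GMNN, GINS1, CDC6, PRIM1, KIF2C, TPX2 and STK39, and the grouping by gene span, were chosen after their values were seen. Of the probe sets, 19071 carried 1 gene symbol in the platform annotation, 1043 several and 2169 none. Gene spans and promoters were from RefSeq (GRCh38.p14). Alternatives covered the filter, the scaling, array weights, the variance prior, the arrays fitted, the replicate number and each array left out.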

Additional observations from a re-analysis of the deposited data

Results flagged for a closer look

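Opposite responses were looked for only in probe sets examined gene by gene, some of them chosen after their values were seen. In 8 of these the response to C in P-treated cells at 24 h ran opposite to a second response. Each response was without overlap between its groups, although the difference between the responses did not pass the test. The 8 are therefore not a count over all tested probe sets, for which no such count is given. With P against without P at 24 h, the differences between the responses were 2.38 for PSMD12 (SE 0.43), a proteasome subunit, 2.38 for GINS1 (SE 0.62), 1.29 for MAD2L1 (SE 0.36), 1.05 for ATR (SE 0.29), 1.01 for CDK1 (SE 0.33) and 1.00 for DNAJA1 (SE 0.29). Their adjusted p values from limma ran from 0.136 for PSMD12 to 0.218 for CDK1. Between 24 h and 8 h the differences were 2.50 for 1 probe set of RFC3 (SE 0.57, adjusted p = 0.319) and 1.88 for IDI1 (SE 0.73, adjusted p = 0.482). CDK1, DNAJA1 and IDI1 have other tested probe sets, whose values are not given.

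The response of this PSMD12 probe set was 1.39 with P and −0.99 without it. Its log2 signals were 3.75, 3.89 and 3.57 with P against 5.81 and 4.44 with P/C, all under the signal limit of 100 (log2 6.64). Another tested PSMD12 probe set, of higher mean signal, had an adjusted p of at least 0.392 from limma for the difference with and without P. The array labelled P/C replicate 1 was the higher of the P/C arrays in all 8 of these probe sets.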

How the results depend on the processing

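The 5 calls between P/C and P at 24 h were not stable. None was made without the filter on low signals, with quantile normalization, with array weights or with only the arrays of the comparison (0 in each), 4 with each array centred on its median, 25 with a signal of at least 200 (22 higher and 3 lower) and 42 with an intensity trend in the prior variance (36 and 6). Leaving out each array in turn gave 0 to 310 calls, with 0 without the array labelled P/C replicate 1 and 310 without P/C replicate 3 (205 and 105), 0 without P replicate 1 or 3 and 2 without P replicate 2, namely PCNA and SF3A3. In settings added once the data had been seen, 98 were called without C replicate 1 (76 and 22), and 7 without that array and P/C replicate 1. With the replicate number as a replicate block 58 were called (45 and 13). Deviations of same-numbered P and P/C arrays gave r = −0.18 for replicate 1 and 0.00265 for replicate 3. With 2 P/C arrays the deviations mirror each other, so these values cannot decide whether the numbers are pairs. The main fit did not take them as pairs. The cause of these changes was not tested. No alternative gave a call at 8 h. The difference with and without P had 1 call with array weights (PSMD12), 3 without both arrays labelled replicate 1 (ATF3, PSMD12 and STK39), and 0 to 153 with each array left out, 2 without C replicate 1 and 153 without P/C replicate 3. The difference between 24 h and 8 h had 0 to 96, the latter without P/C replicate 3. Signs turned in 9 named probe sets. Without P/C replicate 1, and also without C replicate 1, the log2 difference was −0.080 for 1 RRM1 probe set, −0.44 for TPX2, −0.38 for KIF2C, 0.064 for ASNS and 0.029 for LRRC8D, against 0.86, 1.401, 1.72, −1.52 and −1.70 without P/C replicate 3. Without P/C replicate 3 it was 0.12 for AURKA, 0.28 for BIRC5, 0.31 for BUB1B and 0.17 for CCNB2, against −1.13, −1.20, −0.94 and −0.76 without P/C replicate 1. With the probe set of largest interquartile range standing for a gene, the DNA replication list had 1 call and a median of 0.70, and the p53 target and mitosis medians were 0.65 and −0.16. With 2 and 3 arrays a group, small differences could not be called.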
